A study of Mus musculus with 36 samples.

Results

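The core proteins of the spliceosome were followed here through 42 genes, out of 24781 genes in the deposited count table. They were taken by name: the symbols that begin with Snrp, Snrnp, Sf3a or Sf3b, those made of Lsm and a digit, and Phf5a. The family was chosen with measured values in view, since it was selected on a lower level of Phf5a in tumour macrophages from mice without B cells. That comparison is therefore a description: the number of genes under the threshold is listed beside that over all genes, and no result is drawn from it. The symbols Lsmem1 and Snrk come closest in name and were not taken. The rule also took 6 Lsm genes outside the splicing particles (Lsm1, Lsm10, Lsm11, Lsm12, Lsm14a and Lsm14b). They are counted as members, also where the text says spliceosome genes. The 42 genes lie on 16 chromosomes, at most 6 of them on the same chromosome.

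The study asked how GABA made by B cells acts on immune cells of a tumour. MC38 colon carcinoma cells were grown in mice, and on day 7 a sorter collected 100 cells per library, with 1 library per mouse and cell type. The cells were tumour-associated macrophages (TAMs, CD45+CD11b+F4/80high) and CD8 T cells (CD45+TCRbeta+CD8+). Each library counts distinct RNA molecules by a molecular barcode that is attached at the poly(A) tail. Each cell type came from 3 groups of 6 mice on a C57BL/6 background. The WT mice kept their B cells. The muMt-/- mice lack mature B cells. The mice of the last group were also muMt-/- and carried a subcutaneous pellet that releases GABA slowly. The labels give no treatment for the other groups, while the study's methods speak of placebo pellets. The study describes the WT and muMt-/- mice of its TAM transcript comparison as placebo-treated.

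Depth differed between the cell types and between the groups. The TAM libraries held at least 206394 molecules in WT mice (median 242756), 100254 to 253608 in muMt-/- mice and 151856 to 262606 in muMt-/- mice with GABA. The CD8 libraries held at most 76898 (median 42065.5), 51064 to 77839 and 65356 to 98015 molecules in the same order. The CD8 libraries thus counted fewer molecules in total, and a gene with a mean near 1 molecule was often at 0 there.

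The spliceosome removes introns from messenger RNA precursors. Its building blocks are small nuclear RNAs, each wrapped in a ring of Sm or Lsm proteins and joined by proteins of its own; the U1 particle reads the start of an intron and the U2 particle, with SF3a and SF3b, holds the branch point. PHF5A is a small SF3b subunit that lines the pocket for the branch point, and all nucleated cells, macrophages and T cells included, need the machine.

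The labels were checked against marker genes. The 10 macrophage markers together gave 1881 to 3237 molecules per library in WT TAMs, 891 to 1849 in muMt-/- TAMs and 869 to 2265 with GABA, with C1qb, C1qa and C1qc the most abundant. The CD8 T cell markers, 7 of 8 found in the table, gave 72 to 298 molecules per CD8 library and at most 9 per TAM library. Both cell types thus carried their own markers in every library. CD8 libraries also held macrophage transcripts, 0 to 31 molecules in WT, 14 to 179 in muMt-/- and 5 to 171 with GABA. The 4 epithelial markers gave at most 1 molecule per library. The 4 neutrophil markers gave at most 47. The 5 stromal markers, led by Col3a1, reached 1251 molecules in 1 WT TAM library, 407 in muMt-/- TAMs and 642 with GABA, and in CD8 libraries at most 47, 86 and 61.

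The members together took a small share of all molecules. In TAMs the share was 0.353, 0.389 and 0.425% (lowest, median, highest library) in WT mice, 0.290, 0.321 and 0.340% in muMt-/- mice and 0.374, 0.376 and 0.413% in muMt-/- mice with GABA. In CD8 T cells it was 0.429, 0.486 and 0.553% in WT, 0.367, 0.490 and 0.524% in muMt-/- and 0.445, 0.529 and 0.546% with GABA. The 6 muMt-/- TAM libraries lay under all libraries of the other TAM groups, while the CD8 groups overlapped one another. The lowest CD8 libraries were muMt-/- replicates 1 and 4. WT CD8 libraries all lay above WT TAM libraries. Because each library holds the RNA of sorted cells in bulk, fewer cells that express a gene and less of its RNA per cell cannot be told apart.

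The share was also taken without Phf5a, as a description of the same libraries. It was then 0.347, 0.385 and 0.420% in WT TAMs, 0.287, 0.321 and 0.338% in muMt-/- TAMs and 0.369, 0.373 and 0.412% in TAMs with GABA. The mean share of all 42 genes in muMt-/- TAMs was 0.817 times that in WT TAMs, a comparison which the choice of the family used. The mean with GABA was 1.22 times the muMt-/- mean and 0.993 times the WT mean in TAMs, the latter 1.007 when scaled molecules were summed instead. The ratio of muMt-/- to WT was 0.952 in CD8 T cells, that of GABA to muMt-/- 1.11, and that of GABA to WT 1.06.

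**Figure D1:**
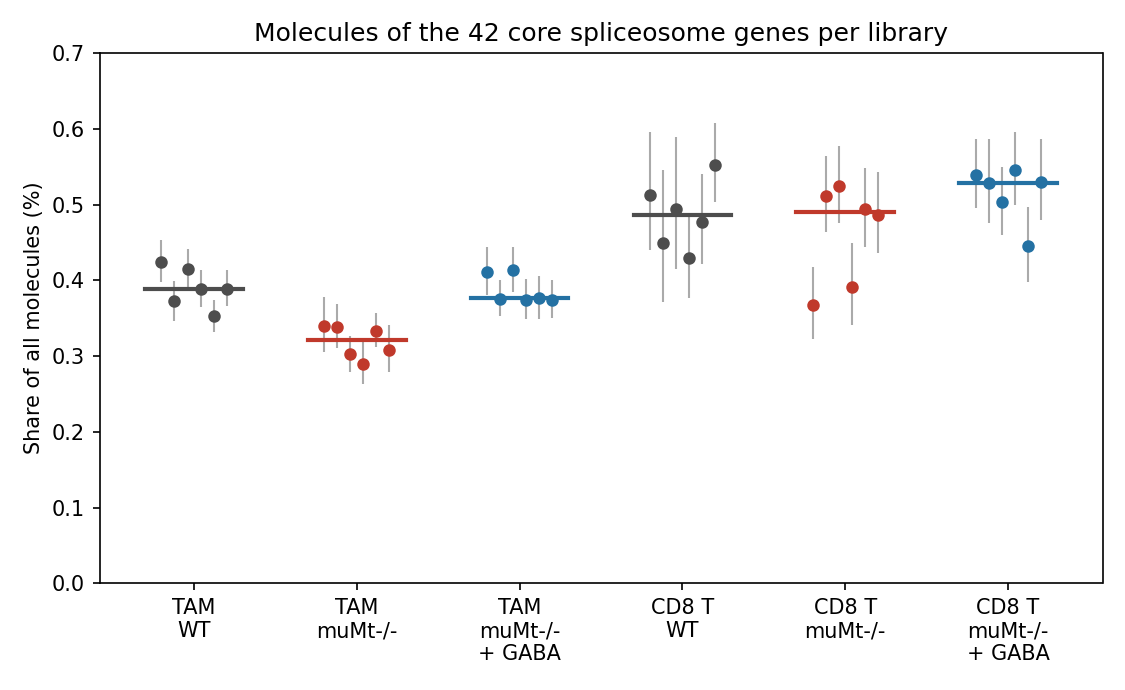
Share of all molecules (percent, vertical axis) that fell on the 42 genes in each of the 36 libraries, by cell type and mouse group (horizontal axis); each point is a library with its 95% Wilson interval, which covers counting error only, and the thick line is the median of the group. The muMt-/- TAM libraries sit between 0.290 and 0.340%, and the other TAM libraries between 0.353 and 0.425%.

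Among the roles, the SF3b subunits come first because Phf5a is one of them. Levels of single genes are given as molecules per library after scaling for depth within a cell type, so they compare groups and not cell types or genes. Phf5a (chromosome 15, 81864516 to 81871892, minus strand, build mm10) stood at 5.82, 9.29 and 15.0 (lowest, median, highest) in WT TAMs, at 0, 3.13 and 6.45 in muMt-/- TAMs and at 3.05, 6.40 and 9.16 in TAMs with GABA. Before scaling these were 8 to 19, 0 to 7 and 3 to 11 molecules. The muMt-/- libraries were mostly low, with replicate 6 at 0, yet their range overlapped both other groups. In CD8 T cells Phf5a stood at 0, 2.46 and 5.72 in WT, at 1.01, 2.07 and 5.20 in muMt-/- and at 0.914, 2.41 and 6.82 with GABA. All 3 CD8 ranges overlapped over most of their length.

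Sf3b1, the large scaffold of SF3b that clamps the branch helix, gave 47.2, 51.3 and 57.2 in WT TAMs, 46.2, 62.5 and 73.5 in muMt-/- TAMs and 42.5, 54.0 and 67.5 with GABA. Sf3b4, which contacts RNA next to the branch point, gave 8.72, 15.6 and 17.0 in WT TAMs, 11.98, 15.6 and 25.1 in muMt-/- TAMs and 15.1, 26.2 and 45.1 with GABA. The highest Sf3b4 library was GABA replicate 1, and 5 of the 6 GABA libraries lay above every WT library. The other subunits of the complex, Sf3b2, Sf3b3, Sf3b5 and Sf3b6, overlapped between all TAM groups. Their medians across the TAM groups were 43.5 to 51.3 for Sf3b2, 8.77 to 10.6 for Sf3b3, 14.4 to 17.9 for Sf3b5 and 16.3 to 21.0 for Sf3b6.

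SF3a bridges SF3b to the rest of the U2 particle. Sf3a3, its elongated subunit, gave 7.10, 11.04 and 14.5 in WT TAMs, 4.61, 6.24 and 8.71 in muMt-/- TAMs and 7.32, 12.1 and 15.2 with GABA. The muMt-/- libraries were the low ones, and the overlap with the other groups was narrow. Sf3a1 gave medians of 9.58, 8.12 and 9.41 in those groups and Sf3a2 gave 8.36, 8.86 and 8.31. In CD8 T cells Sf3a3 ran from 0 to 5.06 over the 18 libraries, with medians of 3.08, 3.23 and 3.17.

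The Sm ring is the collar that 7 proteins form around the U1, U2, U4 and U5 RNAs, and Snrpn is the neuronal relative of Snrpb. Its genes gave 113, 136 and 157 molecules per 100000 in WT TAMs, 86.8, 97.0 and 118 in muMt-/- TAMs and 114, 125 and 140 with GABA. In CD8 T cells they gave 153, 164 and 199 in WT, 114, 162 and 194 in muMt-/- and 174, 200 and 221 with GABA. Of the muMt-/- TAM libraries the highest overlapped the WT and GABA ranges. Snrpn was at 0 in all 36 libraries, and the other 7 genes were found in 35 or 36 libraries each.

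Within the ring, Snrpe gave 27.6, 31.5 and 37.0 scaled molecules in WT TAMs, 22.3, 23.6 and 30.1 in muMt-/- TAMs and 30.2, 31.1 and 35.7 with GABA. Snrpd1 gave 15.7, 16.9 and 18.9, then 7.47, 10.99 and 14.9, then 11.9, 14.6 and 21.6 in the same order. Snrpd3, the ring gene with the highest mean, gave medians of 56.7, 58.7 and 57.8. Snrpe in muMt-/- TAMs lay just under the GABA range without touching it, Snrpd1 in muMt-/- TAMs lay under the WT range, and Snrpd3 overlapped throughout. The share of all genes whose groups lie apart in this way is not given here, so no result is drawn from such gaps.

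**Figure D2:**
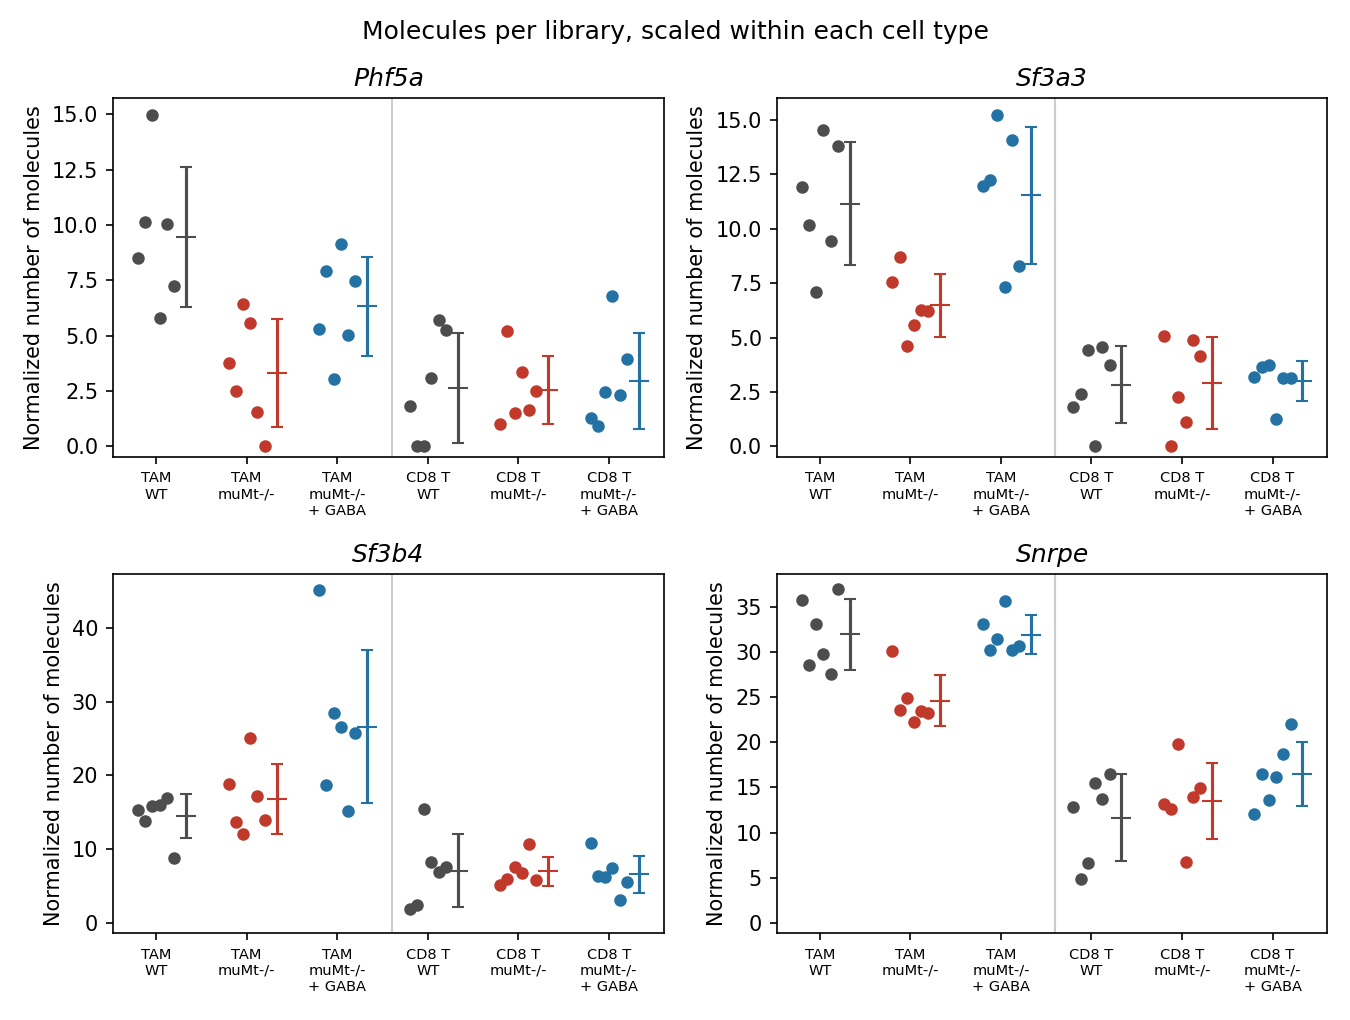
Scaled molecules per library (vertical axis) of Phf5a, Sf3a3, Sf3b4 and Snrpe in the 6 groups (horizontal axis); points are libraries, the short bar is the mean and the whiskers are 1 SD, and the grey line parts the cell types, which are scaled separately. Snrpe in TAMs lies between 22.3 and 30.1 in muMt-/- mice and between 30.2 and 35.7 with GABA.

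The proteins of the single particles followed in smaller sets. Snrnp70, which holds the stem of U1 RNA, gave medians of 18.4, 21.5 and 22.0 in TAMs and 10.4, 11.6 and 10.4 in CD8 T cells (WT, muMt-/-, GABA), and the groups overlapped. The U2 protein Snrpb2 gave 29.8, 24.4 and 25.1 in TAMs and 11.4, 9.45 and 10.98 in CD8 T cells. Snrnp200, the helicase of the U5 particle that unwinds U4 from U6, gave 15.1, 16.1 and 19.8 in TAMs and 4.66, 6.26 and 6.61 in CD8 T cells. None of these sets parted the groups.

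The minor spliceosome, which removes a rare class of introns, was the thinnest set. Snrnp25, Snrnp35 and Snrnp48 belong to its U11 and U12 particle, and together they gave 14 to 23 molecules per library in WT TAMs and 0 to 10 in WT CD8 T cells. Snrnp25 stood at 0 in 4 of 6 muMt-/- CD8 libraries, in 1 WT library and in no library with GABA. A difference in Snrnp25 between CD8 groups thus rests on 0 to 3 molecules per library.

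Lsm2 to Lsm8 form the ring on U6 RNA, where Lsm8 replaces the Lsm1 of the cytoplasmic ring that leads messenger RNA to decapping. The U6 set gave 43.9, 49.6 and 53.6 molecules per 100000 in WT TAMs, 24.9, 34.7 and 43.9 in muMt-/- TAMs and 39.0, 46.7 and 53.3 with GABA. The highest muMt-/- library came just under the lowest WT library and within the GABA range. Lsm7 gave medians of 21.3, 14.2 and 21.4 scaled molecules in TAMs and 7.42, 7.88 and 7.23 in CD8 T cells. The other set holds Lsm1, the U7 histone proteins Lsm10 and Lsm11, Lsm12, and the translational repressors Lsm14a and Lsm14b. It gave medians of 22.9, 18.3 and 23.6 per 100000 in TAMs and 28.5, 26.6 and 24.7 in CD8 T cells, with overlap between all groups.

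TAMs of muMt-/- mice against those of WT mice is the comparison that the choice of the family used. A filter on a mean above 1 scaled molecule kept 41 of the 42 genes in TAMs, all but Snrpn. Of these, 12 were higher and 29 lower, with a median log2 fold change of -0.31 beside -0.05 over all 9469 genes. Phf5a, at a log2 fold change of -1.48, was the 1 gene of 41 with an adjusted p under 0.05 in edgeR, beside 2.06% of all genes. With single libraries left out, 69 to 232 genes in all passed in edgeR. In DESeq2 Phf5a was also the 1 gene that passed among 36 with an adjusted value, beside 4.82% of the 5245 genes with such a value. Phf5a lost its adjusted p under 0.05 in edgeR with log2 depth as a covariate, and in 9 of the 12 fits that left out a library. Its log2 fold change ran from -1.88 to -1.26 over those 12 fits. No result is drawn from these counts.

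Several other measures moved with the same groups in TAMs. Summed Malat1, Neat1, Meg3 and Kcnq1ot1, RNAs that stay in the nucleus, gave 317, 366 and 389 molecules per 100000 in WT TAMs, 469, 577 and 1047 in muMt-/- TAMs and 349, 388 and 534 with GABA, mostly Malat1. The 28 proliferation genes gave 206, 235 and 310, then 107, 154 and 213, then 137, 180 and 269. Depth was lowest in the muMt-/- TAMs as well. With log2 depth as a covariate the members' median log2 fold change was -0.29 beside -0.02 over all genes for muMt-/- against WT TAMs, where 0 members and 10 genes in all had an adjusted p under 0.05, beside 195 genes without the covariate. For GABA against muMt-/- TAMs it was 0.28 beside 0.04. The 10 macrophage markers had medians of 989, 750 and 860 molecules per 100000 in WT, muMt-/- and GABA-treated TAMs, and in muMt-/- against WT Lyz2, C1qb and C1qc were lower by value (-0.74, -0.62 and -0.58) and Itgam higher (0.66), each with an adjusted p under 0.05. The part of nuclear RNA, proliferation and macrophage markers in the level of the spliceosome genes was not tested.

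GABA in TAMs was compared with muMt-/- TAMs without it, to ask what the pellet changes in the absence of B cells. This comparison shares the muMt-/- libraries with the preceding one, so a chance low in those libraries enters both. Of 41 spliceosome genes, 31 were higher and 10 lower with GABA, and the median log2 fold change was 0.28 beside 0.05 over all genes. No member passed an adjusted p under 0.05 in edgeR's quasi-likelihood test, beside 0.0211% of all genes (2 of 9469). Without GABA replicate 1 the genes that passed were 39 of 9493, and without muMt-/- replicate 5 they were 12 of 9431, with 0 members in both. None of the 5 members with an adjusted value passed in DESeq2, beside 7.14% of the 840 genes with such a value. At an unadjusted p under 0.05 in edgeR there were 8 members, beside 8.34% of all genes. All 8 were higher, a direction that 4.93% of all genes showed at that p. They were Lsm4, Phf5a, Sf3a3, Sf3b4, Sf3b6, Snrpd1, Snrpe and Snrpf, and at an unadjusted p under 0.05 in DESeq2 4 of them remained (Lsm4, Sf3a3, Sf3b4 and Snrpf), beside 580 of all 9458 genes. These p-values measure the spread between the libraries of different mice. Phf5a is among the 8, and its low level in the shared muMt-/- libraries chose the family. No result is drawn from this count.

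The named genes of that comparison gave these differences (log2 fold change ± SE, 6 against 6 libraries). Sf3a3 differed by 0.85 ± 0.29 (adjusted p = 0.335), with 4 of 6 GABA libraries above every muMt-/- library. Sf3b4 differed by 0.66 ± 0.24 (adjusted p = 0.337), with 4 of 6 GABA libraries above every muMt-/- library. Lsm4, a subunit of the U6 ring, differed by 0.61 ± 0.24 (adjusted p = 0.446). Phf5a differed by 0.94 ± 0.43 (adjusted p = 0.555). Snrpe, whose 6 GABA libraries all lay above the muMt-/- libraries, differed by 0.40 ± 0.17 (adjusted p = 0.516). None of these differences passed the test over all genes. By role, all 7 tested Sm genes were higher, at 0.21 to 0.53, and 6 of the 7 U6 ring genes were higher. The 3 minor spliceosome genes were lower, at -0.70 to -0.18. Of the other SF3b and SF3a subunits, the values ran from -0.12 for Sf3b1 to 0.48 for Sf3b6.

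GABA-treated muMt-/- TAMs against WT TAMs asks how far the pellet restores the state with B cells. The WT libraries are shared with the comparison that chose the family. Of 41 members, 19 were higher and 22 lower, with a median of -0.03 beside 0.01 over all genes. In edgeR none passed, beside 0.0739% of all genes. In DESeq2 none of the 8 members with an adjusted value passed, beside 1.01% of the 1391 genes with such a value. At an unadjusted p under 0.05 there were 4, beside 7.01% of all genes. Sf3b4 was higher by 0.83 ± 0.22 (adjusted p = 0.229), with 5 of 6 GABA libraries above every WT library. Lsm8 differed by -0.83 ± 0.35 (adjusted p = 0.614), from 4.36, 9.43 and 12.6 scaled molecules in WT to 0, 5.43 and 7.11 with GABA. Snrpd2, a Sm ring subunit, differed by -0.41 ± 0.19 (adjusted p = 0.692), and Snrpa, the U1 protein that binds a loop of its RNA, by -0.52 ± 0.25 (adjusted p = 0.703). The Lsm8 and Snrpd2 ranges overlapped between the groups. Phf5a differed by -0.53 ± 0.32 (adjusted p = 0.774).

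**Figure D3:**
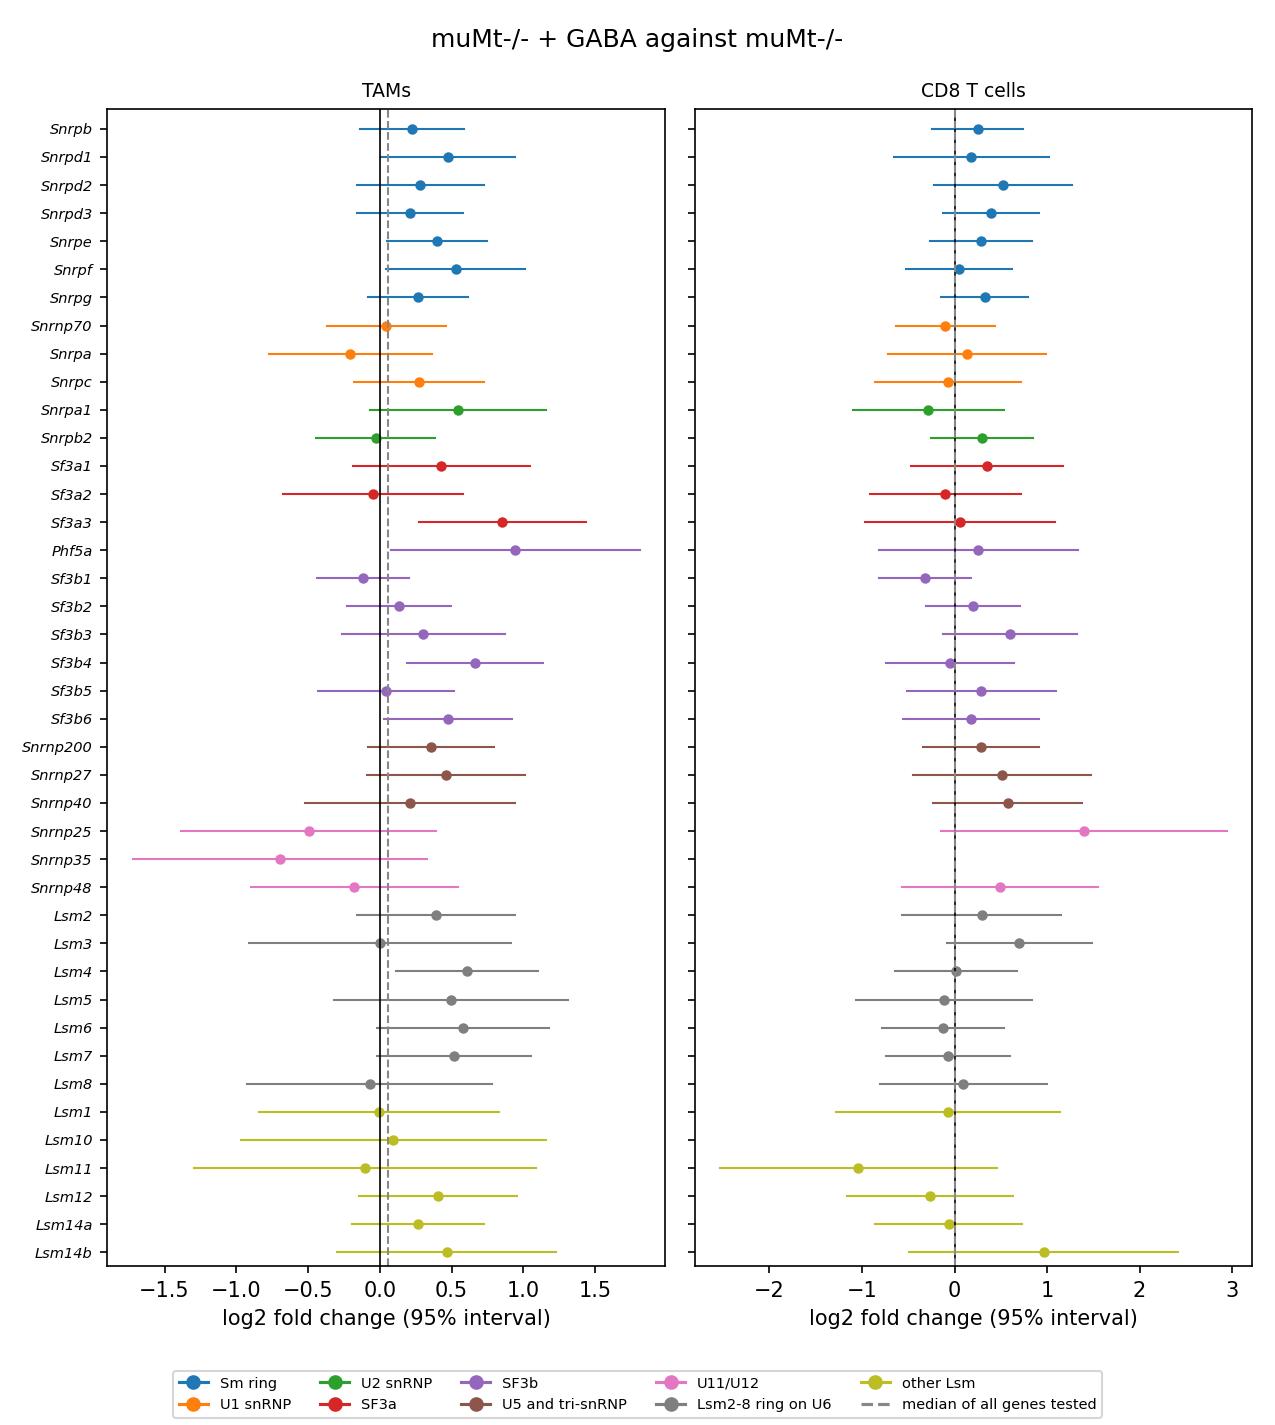
Log2 fold change (horizontal axis) of each spliceosome gene tested (vertical axis, coloured by role) in muMt-/- mice with GABA against muMt-/- mice without it, in TAMs and in CD8 T cells; bars are 95% intervals, the solid line is at 0 and the dashed line is the median of all genes tested. In TAMs 31 of 41 genes lie to the right of 0, and in CD8 T cells 26 of 39.

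The rule that chose the genes did not use the CD8 libraries, although it was written with earlier results of the whole series known. The filter kept 39 members there and dropped Lsm10, Snrnp35 and Snrpn. In muMt-/- against WT, 21 were higher and 18 lower. The median log2 fold change was 0.06 beside 0.15 over all 6663 genes, and with DESeq2's size factors it turned to -0.04 beside 0.06. No member passed in edgeR or in DESeq2, beside 0% of all genes with either tool, and 1 had an unadjusted p under 0.05 in edgeR, beside 6.08% of all genes. That gene was Snrnp25, at -1.68 ± 0.81 (adjusted p = 0.789) and at -2.60 without muMt-/- replicate 6. Lsm14b, which ran from 0 to 6.63 in WT and from 0 to 4.05 in muMt-/-, differed by -1.48 ± 0.74 (adjusted p = 0.825) and by -2.62 without muMt-/- replicate 1. Snrpa1, a U2 protein that pairs with Snrpb2, gave 1.83, 2.31 and 4.51 in WT and 2.24, 5.70 and 6.66 in muMt-/-, a difference of 0.80 ± 0.48 (adjusted p = 0.868), or 0.52 with depth as a covariate. All of these ranges overlapped. Phf5a differed by -0.28 ± 0.58 (adjusted p = 0.987), an interval from -1.46 to 0.90.

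Macrophage transcripts moved with these CD8 groups. All 8 macrophage markers tested were higher in muMt-/- than in WT CD8 libraries, with a median log2 fold change of 2.34. None passed in edgeR, and 6 had an unadjusted p under 0.05. Against GABA-treated mice, 8 of 8 were again higher than in WT. WT CD8 libraries also had the lowest median depth. With log2 depth as a covariate the members' median log2 fold change was -0.15 for muMt-/- against WT (all genes 0.05), 0.06 for GABA against muMt-/- (all genes -0.06) and 0.03 for GABA against WT (all genes 0.00). The stromal markers had medians of 14.3, 52.4 and 19.3 molecules per 100000 in WT, muMt-/- and GABA-treated CD8 T cells, and none of the 2 tested passed in edgeR. The part of the macrophage and stromal transcripts in the values of the spliceosome genes was not tested.

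GABA in CD8 T cells, against muMt-/- mice without it, gave 26 members higher and 13 lower. The median was 0.18 beside 0.00 over all genes. No member passed in edgeR or DESeq2, beside 0% of all genes with either, and 0 had an unadjusted p under 0.05 in edgeR, beside 3.69% of all genes. The 7 Sm genes tested were all higher, at 0.05 to 0.53, and Snrpd2 gave 3.03, 6.76 and 8.97 in muMt-/- and 4.45, 9.91 and 13.3 with GABA. The smallest p-values belonged to Snrnp25, at 1.40 ± 0.76, to Lsm3 of the U6 ring, at 0.70 ± 0.39, and to Sf3b3, a propeller protein of SF3b, at 0.60 ± 0.36. Each had an adjusted p of 1 over all genes, and in each the groups overlapped. Snrnp25 moved to 2.35 without muMt-/- replicate 6, and Lsm3 to 0.39 without GABA replicate 1. Phf5a differed by 0.26 ± 0.53.

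Against WT CD8 T cells, those from GABA-treated muMt-/- mice gave 25 members higher and 14 lower. The median was 0.20 beside 0.17 over all genes, and with DESeq2's size factors 0.08 beside 0.06. No member passed in edgeR, beside 0% of all genes, or in DESeq2, beside 0.015%. In edgeR 1 member, Snrpd2, had an unadjusted p under 0.05, beside 6.41% of all genes. Snrpd2 gave 0, 3.69 and 9.77 in WT and 4.45, 9.91 and 13.3 with GABA, a difference of 0.82 ± 0.40 (adjusted p = 0.779), or 0.19 with depth as a covariate. Sf3b5, a small SF3b subunit, differed by 0.82 ± 0.46 (adjusted p = 0.826), by 0.07 with depth as a covariate and by 0.54 without GABA replicate 1, and Snrnp200 by 0.59 ± 0.34 (adjusted p = 0.834). The groups overlapped for these genes. Phf5a differed by -0.02 ± 0.51.

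TAMs and CD8 T cells of WT mice were set side by side to ask whether the cell types use the machinery at different levels. These 12 libraries were scaled together. Snrnp70 gave 8.44, 9.94 and 12.9 in TAMs and 14.5, 16.2 and 20.3 in CD8 T cells, and the ranges did not overlap. The share of all genes without overlap between the cell types is not given here. Snrpd2 gave 9.498, 12.8 and 16.9 in TAMs and 0, 5.78 and 15.3 in CD8 T cells, with overlap. Phf5a gave 3.21, 5.02 and 8.11 in TAMs and 0, 3.90 and 8.80 in CD8 T cells, also with overlap.

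Over the 41 members tested, 22 were higher and 19 lower in TAMs. None of the 41 passed in edgeR, beside 24.6% of all 8174 genes, and none in DESeq2, beside 20.3%. At an unadjusted p under 0.05 in edgeR there was 1 member, Snrnp70, beside 34% of all genes. The median log2 fold change of the members was 0.02 beside 0.30 over all genes with the TMM scaling, and -0.10 beside 0.19 with DESeq2's size factors. The sign of the members' median thus turned with the scaling, while the difference from all genes was -0.28 and -0.29. Without a filter on low counts that difference was -0.47. Snrnp70 differed by -0.55 ± 0.26 (adjusted p = 0.124), Snrpd2 by 0.66 ± 0.34 (adjusted p = 0.156) and Sf3b5 by 0.62 ± 0.35 (adjusted p = 0.218). Phf5a differed by 0.06 ± 0.44 (adjusted p = 0.948).

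The calls between the cell types differed in a fit with edgeR's filterByExpr, a stricter filter on low counts, which also recomputed the scaling on the 2526 genes it kept. All 23 members that remained shifted down by nearly the same amount, and 4 of them passed, all lower in TAMs, beside 1089 of all 2526 genes, a larger share. The part of the filter and that of the scaling were not tested apart. They were Snrnp70 at -0.91 ± 0.23 (adjusted p = 0.00201), Snrpg of the Sm ring at -0.73 ± 0.19 (adjusted p = 0.00288), Snrpf of the same ring at -0.65 ± 0.24 (adjusted p = 0.0291) and Sf3b1 at -0.52 ± 0.20 (adjusted p = 0.0324). In that fit the median of all genes was 0.01 and that of the members -0.34, a difference of -0.35 beside -0.28 in the first fit. Snrpg gave 20.8, 23.8 and 31.9 in TAMs and 26.0, 31.5 and 46.0 in CD8 T cells, and Snrpf gave 16.1, 17.4 and 30.6 against 14.7, 27.7 and 37.2. In both genes the CD8 median was higher, and the ranges overlapped.

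Within the roles the cell types differed in both directions without a call. In the Sm ring the values ran from -0.36 for Snrpg to 0.66 for Snrpd2, in U1 from -0.55 for Snrnp70 to 0.25 for Snrpa, and in U2 from -0.05 for Snrpb2 to 0.28 for Snrpa1. In SF3a they ran from -0.07 for Sf3a2 to 0.58 for Sf3a3, in SF3b from -0.38 for Sf3b4 to 0.62 for Sf3b5, and in the U5 set from -0.32 for Snrnp40 to 0.45 for Snrnp27. In the remaining sets the minor spliceosome ran from -0.56 for Snrnp48 to 1.08 for Snrnp35, the U6 ring from -0.61 for Lsm5 to 0.25 for Lsm8, and the other Lsm genes from -1.04 for Lsm11 to 0.37 for Lsm14a.

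**Figure D4:**
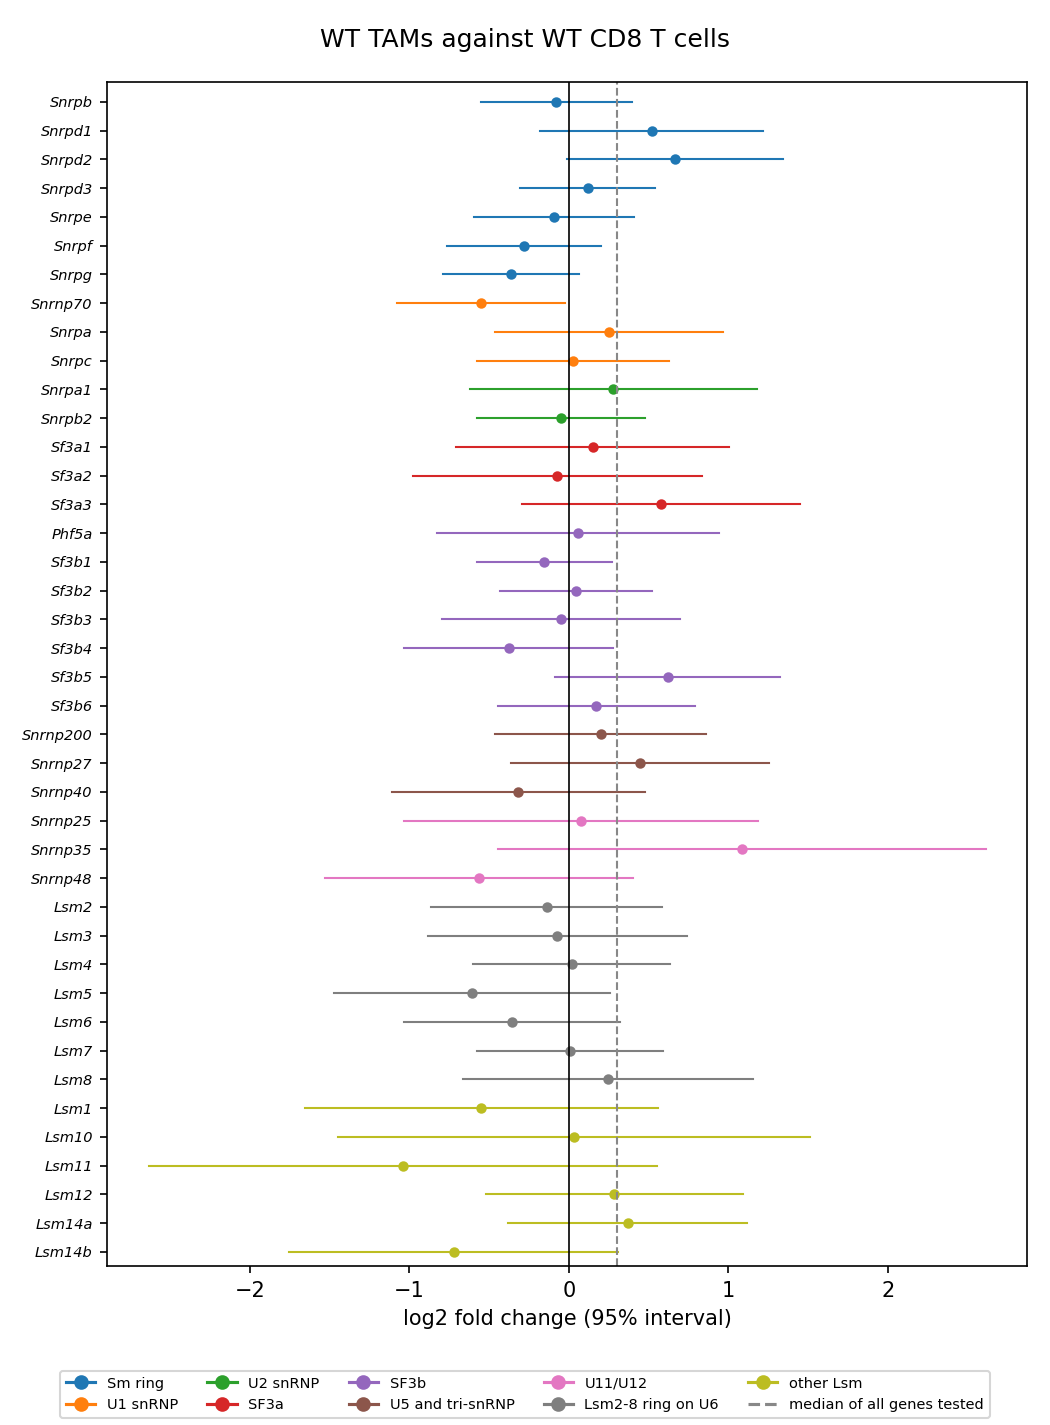
Log2 fold change (horizontal axis) of 41 spliceosome genes (vertical axis, coloured by role) in TAMs against CD8 T cells of WT mice; bars are 95% intervals, the solid line is at 0 and the dashed line, at 0.30, is the median of all genes tested. Most genes lie to the left of the dashed line, and their median is 0.02 with this scaling and -0.10 with DESeq2's size factors.

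The responses of the cell types were compared over all 36 libraries. For the loss of B cells, 13 of 41 members had a higher and 28 a lower log2 fold change in TAMs than in CD8 T cells. The TAM values here are those that chose the family, so this is a description from which no result is drawn. The median difference was -0.27 beside -0.29 over all genes, and -0.09 beside -0.11 with DESeq2's size factors. In edgeR no member passed, beside 0.0118% of all genes. In DESeq2 none of the 20 members with an adjusted value passed, beside 0.376% of the 2395 genes with such a value. At an unadjusted p under 0.05 there were 4 members, beside 10% of all genes. They were Snrpd2 at -0.99, Snrpd1 at -1.08, Lsm14b at 1.73 and Lsm6 at -0.90, and Phf5a stood at -1.18.

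For GABA the difference between the cell types was higher in TAMs for 23 members and lower for 18, with a median of 0.02 beside 0.00. The median was 0.12 beside -0.01 with filterByExpr, and -0.006 beside 0 without a filter. No member passed in edgeR or DESeq2, beside 0% of all genes with either tool. The 1 member with an unadjusted p under 0.05, beside 4.52% of all genes, was Snrnp25 at -2.03 ± 0.90 (adjusted p = 0.994), which rests on the few molecules described for it. Sf3b4 gave 0.66 ± 0.41 and Snrpa1 0.79 ± 0.50, both with an adjusted p of 0.994. Phf5a gave 0.62 ± 0.68. The 95% interval for Phf5a ran from -0.74 to 1.99, so neither a similar nor a different response of the cell types was shown.

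Partners of the members gave a backdrop. The 60 other spliceosome genes, among them helicases and scaffold proteins, had medians of 390.4, 391.9 and 388.2 molecules per 100000 in the 3 TAM groups. In the comparison of GABA with muMt-/- TAMs, 27 of them were higher and 33 lower, with a median of -0.06, while 9 of 12 SR proteins, which mark exons, were higher at a median of 0.15. Of 15 genes for the assembly of the particles, 9 were higher at a median of 0.11. Of 8 decapping partners of Lsm1, 4 were higher at a median of -0.07. Of 28 proliferation genes, 25 were higher at a median of 0.32. No gene of these lists passed in edgeR there, and 7, 2, 2, 0 and 5 had an unadjusted p under 0.05 in that order, beside 8.34% of all genes.

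In the comparison that chose the family, muMt-/- against WT TAMs, the same lists are given as a description. There 2.06% of all 9469 genes had an adjusted p under 0.05 in edgeR. Of the other spliceosome genes 32 of 60 were higher, and Dhx38, a helicase of the splicing steps, was the 1 with an adjusted p under 0.05, at 0.85. Of the proliferation genes 27 of 28 were lower and 5 had an adjusted p under 0.05, among them Asf1b at -2.08, Mad2l1 at -1.89, Kif20a at -1.59 and Ccna2 at -1.46. No SR protein, assembly gene or decapping gene did.

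Between WT TAMs and WT CD8 T cells, 5 of 28 proliferation genes, 2 of 58 other spliceosome genes and 1 of 12 SR proteins rose in TAMs by edgeR, and 1 other spliceosome gene fell, beside the 24.6% of all genes that passed in either direction. None of 12 assembly and 7 decapping genes passed. Isy1, a protein of the active spliceosome, fell by 1.65 on the log2 scale (adjusted p = 5.83e-05), and Txnl4a, a small U5 protein, rose by 0.83 (adjusted p = 0.0352). The cell type markers showed the scale of the contrast. Cd8a was lower in TAMs by -8.52 ± 0.42 and C1qc higher by 7.36 ± 0.33. In the CD8 comparisons and in the differences between cell types no gene of these lists passed in edgeR.

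The starts of the genes were read in RefSeq's promoter table for build GRCm38, in windows of 250 bases before to 50 after the start. The table held 33 of the 42 members, in 40 windows, and Phf5a was not among them. The letters of 12 motifs were searched on both strands. CCGGAAGT, the core that ETS proteins prefer, was in 17.5% of the members' windows and in 3.89% of all 32851 windows. CGCNTGCG, part of the NRF1 motif, was in 35% against 8.21%, and GGGCGG, the GC box, in 65% against 35.7%. TATAAA was in 10% against 13.6% and CCAAT in 32.5% against 37.4%. The remaining motifs were rarer: AAGATGGC in 7.5% against 2.75%, TGACGTCA in 7.5% against 1.79% and CACGTG in 5% against 7.15%. The other 4 were longer words, not spelled here, for NRF1, YY1, ZBTB33 and ZNF143, each in at most 2.5% of the members' windows and at most 0.971% of all windows. The long NRF1 and YY1 words overlap with CGCNTGCG and AAGATGGC. A gene can have more than 1 window. Of the 33 members, 6 had CCGGAAGT, 9 had CGCNTGCG (Snrpn among them) and 24 had GGGCGG, while CACGTG was found only in Snrpa. A match describes the letters and shows no binding.

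The ETS letters stood in the windows of Lsm5, Sf3a1, Sf3a3, Sf3b2, Snrnp27 and Snrpe. Snrpe and Sf3a3 are printed because both were among the 8 genes with an unadjusted p under 0.05 in GABA-treated TAMs, a choice made after their values were seen. The capitals mark the match, which begins at position +7 from the start in Snrpe (chr1:133610231-133610530, minus strand) and at position -91 in Sf3a3 (chr4:124714611-124714910, plus strand, where the letters read on the other strand).
Snrpe: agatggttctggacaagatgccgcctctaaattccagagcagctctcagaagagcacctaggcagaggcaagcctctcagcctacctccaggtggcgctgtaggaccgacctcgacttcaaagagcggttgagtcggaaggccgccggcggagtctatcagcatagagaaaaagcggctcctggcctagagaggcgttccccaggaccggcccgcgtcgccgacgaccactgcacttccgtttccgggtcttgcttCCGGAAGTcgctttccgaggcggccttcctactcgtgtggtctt
Sf3a3: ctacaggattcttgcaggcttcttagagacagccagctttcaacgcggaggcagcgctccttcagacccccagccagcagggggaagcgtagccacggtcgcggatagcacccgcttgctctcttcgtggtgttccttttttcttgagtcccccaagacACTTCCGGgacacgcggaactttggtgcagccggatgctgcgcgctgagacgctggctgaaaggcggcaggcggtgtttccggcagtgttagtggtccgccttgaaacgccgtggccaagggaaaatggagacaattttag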

How the data were processed

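The count table held whole numbers of distinct molecules per gene and library, which the authors made by mapping reads with STAR to mm10 and counting barcodes, as deposited. The members and the lists (other spliceosome, SR proteins and Tra2, snRNP assembly, decapping partners of Lsm1, proliferation, markers) were chosen with earlier results of these data known. Genes with a mean above 1 scaled molecule were fitted in edgeR 4.0.16 (TMM scaling, quasi-likelihood test, Benjamini-Hochberg adjusted p over all genes tested, threshold 0.05). TAMs, CD8 T cells, WT mice and all 36 libraries had separate fits, and differences between cell types used the last. DESeq2 1.42.0 was the second tool and gave the size factors for scaled molecules. The SE was computed from the F statistic. Genes were named by the smallest p-values (3 in each comparison), the highest mean and the largest differences between cell types in each role, and membership in SF3a or SF3b. Snrpe and further genes with an unadjusted p under 0.05, without overlap of groups or called under filterByExpr were named after their values were seen. Alternatives were other scalings, filters, tools, depth as a covariate, a replicate block and leaving out each library. Same-numbered libraries were not treated as paired. Their correlations ran from -0.19 to 0.31, with means from -0.037 to 0.082 over the comparisons. The scripts were tested on simulated data first. ERCC spike-in counts and immunoglobulin constant genes were not analysed here. The result of 1 marker list is not reported here.

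Limits: the 100 cells of a library were pooled, so purity and RNA per cell were not measured. Many members had under 10 molecules per CD8 library, and a difference there may have been too small to see. Counts at the poly(A) end do not show splicing itself, protein or isoforms. The strand used in counting was not stated, so molecules of Sf3a2, Sf3b3, Snrpa, Snrpd3 and Snrpf may include those of overlapping genes on the other strand. Molecules of Sf3a3 and Sf3b3 may also include those of Mir697 and Snord111, which overlap them on the same strand. Molecules of Snrpn, at 0 in all libraries, may have been assigned to Snurf, which overlaps it on the same strand.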

Additional observations from a re-analysis of the deposited data

Results flagged for a closer look

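Within each group of 6 libraries the lowest and the highest value were compared with their nearest neighbour, for 25 genes and for the summed share. This gave 156 groups, of which 7 had a library far from the rest, and chance alone flags about 1 group in 20. All values are scaled molecules.

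In TAMs, Lsm14a stood at 11.95 in GABA replicate 1 (next lowest 15.1), Lsm3 at 17.53 in WT replicate 2 (next highest 9.471) and Lsm8 at 0.0 in muMt-/- replicate 1 (next lowest 4.662). In CD8 T cells, Lsm14b stood at 4.045 in muMt-/- replicate 1 (next highest 0.8326), Sf3b2 at 23.63 in muMt-/- replicate 3 (next highest 14.99), Snrnp200 at 11 in WT replicate 1 (next highest 5.716) and Sf3a3 at 1.239 in GABA replicate 4 (next lowest 3.123). Each of these libraries was named once. The cause was not tested, and no library was left out for it.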

How the results depend on the processing

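Members called at an adjusted p under 0.05 kept their number in 58 of 67 alternatives that kept all libraries. In muMt-/- against WT TAMs, the comparison that chose the family and from which no result is drawn, 1 member was called (Phf5a). There were 2 without a filter (Phf5a and Snrpf, beside 343 of all 14986 genes), 9 with DESeq2's unadjusted p (1111 of 9458), and 0 with log2 depth as a covariate (10 of 9469). With filterByExpr the 1 call was Snrpd2 (299 of 3853). Leaving out single libraries gave 0 to 2: 0 without WT replicate 1, 2 or 3 or muMt-/- replicate 1, 2, 4 or 6, and 2 without muMt-/- replicate 5. Over all genes these fits called from 69 of 9525 (without muMt-/- replicate 4) to 232 of 9431 (without muMt-/- replicate 5). Without WT replicate 5 or muMt-/- replicate 5, Snrpd2 was called and Phf5a was not.

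With DESeq2's unadjusted p, 4 members were called in GABA against muMt-/- TAMs (beside 580 of all 9458 genes), 2 in GABA against WT TAMs (440 of 9458), 2 in TAMs against CD8 T cells (2406 of 8164), 2 in the difference for B cell loss (600 of 8473) and 1 in that for GABA (361 of 8473), where edgeR's adjusted p called 0 and its unadjusted p 8, 4, 1, 4 and 1. An unadjusted p calls more by its construction. Between the cell types filterByExpr called 4 of 23 (beside 1089 of all 2526 genes), and leaving out single libraries gave 0 to 2, with 2 (Snrpd1 and Snrpd2, higher in TAMs, beside 2001 of 8211) without CD8 WT replicate 6. The cause was not tested.

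Medians of the members' log2 fold change moved by less than their set margin in 51 of 58 alternatives and in all 84 that left out a library, but those near 0 crossed it. When single libraries were left out, the median ran from -0.01 to 0.09 in muMt-/- against WT CD8 T cells, from -0.08 to 0.01 in GABA against WT TAMs and from -0.06 to 0.09 between the cell types. In GABA against muMt-/- TAMs it ran from 0.24 to 0.31, and in the same comparison of CD8 T cells from 0.13 to 0.24. In GABA against WT CD8 T cells it ran from 0.11 without WT replicate 1 to 0.28. In muMt-/- against WT CD8 T cells the median reversed to -0.15 with depth as a covariate. In GABA against WT CD8 T cells it moved to 0.032 with the same covariate, and in GABA against muMt-/- CD8 T cells to 0.06 from 0.18. Between the cell types it reversed to -0.10 with DESeq2's size factors, -0.10 in DESeq2 and -0.34 with filterByExpr, while the median of all genes fell from 0.30 to 0.19, 0.20 and 0.01. The members' median minus that of all genes was -0.28, -0.29, -0.30 and -0.35. Without a filter this gap was wider, at -0.47, with medians of 0.09 for the members and 0.56 for all genes. In the difference for B cell loss the members' median moved to -0.090 with DESeq2's size factors and to -0.12 in DESeq2. Some alternatives for the medians, and the share without Phf5a, were added after the data were seen. The cause was not tested.

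With a replicate block, 1 member was called in muMt-/- against WT TAMs (beside 204 of all 9469 genes) and 0 in every other comparison. Between the cell types 1874 of all 8174 genes were called with the block, and in each remaining comparison at most 6 genes. The medians with the block were -0.32, 0.26 and -0.01 in TAMs and 0.05, 0.23 and 0.24 in CD8 T cells. They were 0.02 between the cell types and -0.30 and 0.05 in the differences. The 3 members with the smallest p in each comparison (between the cell types only Snrnp70) kept their sign in every alternative that was run for them, and other named genes had none of their own. Between the cell types filterByExpr shifted all 23 remaining members down alike, which took Snrpa from 0.25 to -0.11. When scaled molecules were summed, the ratios of the members' level were 0.852 for muMt-/- over WT, 1.18 for GABA over muMt-/- and 1.007 for GABA over WT in TAMs, the last across 1, and 0.964, 1.11 and 1.07 in CD8 T cells.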
